A study of Sus scrofa with 12 samples.

Results

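The genes described here are 7 that mark the wall of blood vessels, SMTN, RGS5, KCNMB1, TAGLN, CNN1, ACTA2 and MYH11, followed in a leg muscle of slaughtered pigs during the first day after death. Members were all probe sets whose single gene symbol in the array's annotation was one of these names. This gave 9 of 23999 probe sets (controls left out) and covered 6 of the 7 genes. SMTN had 3 probe sets, KCNMB1 had 2, and RGS5, TAGLN, CNN1 and ACTA2 had 1 each; no probe set carried MYH11, the smooth muscle myosin heavy chain, as its single symbol, so it was not analysed here. The samples were portions of semimembranosus muscle, each of 3 to 5 g, from the left legs of 3 commercial hybrid pigs, all female, of about 160 kg and from 1 farm. All 3 were stunned with CO2 at 87% and untreated otherwise, and neither age nor genotype is stated in the labels. Carcasses were chilled to 4 °C, and muscle was taken from each animal 20 min after death and again at 2 h, 6 h and 24 h. This gave 12 one-colour Affymetrix arrays, 1 for each pig at each time. Every later time is a different piece of the same muscle, so the position within the muscle and the time cannot be told apart for a single array.

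Small arteries and arterioles are wrapped in smooth muscle cells, and capillaries in pericytes, which are related contractile cells. Smooth muscle tone follows from calcium-driven phosphorylation of myosin and is set by signals from the endothelium, nerves and circulating hormones. In skeletal muscle these cells set how blood is shared among fibres, and they are a small minority beside the muscle fibres. The products of the 7 genes act at different points of this system. ACTA2 encodes the smooth muscle alpha actin of the thin filament. TAGLN (transgelin), CNN1 (calponin) and SMTN (smoothelin) encode proteins that bind actin, and smoothelin is typical of fully contractile cells. KCNMB1 encodes the beta subunit that makes the large-conductance calcium-activated potassium channel of smooth muscle more sensitive to calcium. RGS5 encodes a GTPase-activating protein that shortens signalling by G-protein-coupled receptors and is widely used as a pericyte marker.

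The values are log2 intensities after RMA, a procedure that gives all arrays nearly the same distribution. The array medians lay between 5.89 and 5.94, and r over all probe sets was 0.986 to 0.997 for the pairs of arrays. The tissue label was borne out by its defining markers: the 15 skeletal fibre genes on the array had list means between 13.9 and 14.1 on every array. In whole-muscle RNA, fewer vessel wall cells and less RNA per cell cannot be told apart. The 3 pigs limit the precision of every comparison, and the 20 min arrays serve all comparisons with the earliest time, which therefore share their chance values. The 20 min array of pig 3 stood apart in several marker lists, described below, so the 24 h changes of SMTN set 1, KCNMB1 set 1, TAGLN, CNN1 and ACTA2 and the correlations between probe sets are also given without it.

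By 24 h the vessel wall genes did not move as a block. The brightest SMTN probe set, RGS5 and the brighter KCNMB1 probe set lay above their 20 min level in every pig, by 1.31-fold, 1.24-fold and 1.23-fold on average. The dimmer SMTN probe sets also lay higher in every pig, by 1.24-fold and 1.14-fold. TAGLN, CNN1 and ACTA2, the classical smooth muscle markers, lay higher at 24 h in pig 2 and lower in pigs 1 and 3. The dimmer KCNMB1 probe set did so too, with a mean log2 change of -0.15, opposite in sign to that of the brighter one. None of the 9 probe sets passed limma's test adjusted over all probe sets at any time (smallest adjusted p = 0.198, for SMTN at 24 h). Hardly any probe set of the array did: against 20 min, 0% of all passed at 2 h and 6 h and 0.00417% at 24 h. TAGLN, CNN1 and SMTN set 1 passed a test of level between the 3 pigs, as 19.9% of all probe sets did, and SMTN set 1 passed it in only 3 of 15 fits that left out an array or a pig.

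The 3 SMTN probe sets are called here set 1, set 2 and set 3 in order of brightness, the brightest first. In set 1, pigs 1, 2 and 3 had log2 levels of 9.74, 9.69 and 9.20 at 20 min, 9.82, 10.03 and 9.75 at 2 h, 9.87, 10.12 and 9.82 at 6 h, and 9.91, 10.09 and 9.79 at 24 h. At each of the 3 later times all 3 pigs lay above all 3 of the 20 min values, and pig 3 at 20 min was the lowest of the 12 arrays. The mean was 9.54 ± 0.30 (SD, n = 3) at 20 min and 9.93 ± 0.15 at 24 h. The change at 24 h was 0.39 ± 0.21 (SD over 3 pigs) with a 95% interval of 0.18 to 0.60 (SE 0.0976, limma adjusted p = 0.198, unadjusted p = 0.00186). Most of it was present at 2 h (0.33 ± 0.24, adjusted p = 0.579) and all of it at 6 h (0.40 ± 0.24, adjusted p = 0.488). From 6 h to 24 h the change was -0.0049, with an interval of -0.22 to 0.21.

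The SMTN change was graded over the animals, with 0.18, 0.40 and 0.59 for pigs 1 to 3. Leaving out the 20 min array of pig 3 gave 0.28 (limma adjusted p = 0.541). Leaving out every array of pig 3 gave 0.29 (adjusted p = 0.710). The direction was the same in all 24 alternative fits, between 0.28 and 0.51, with unadjusted p between 1.66e-04 and 0.0289 and adjusted p between 0.0573 and 0.805. In that 20 min array, the fibroblast and extracellular matrix list (17 genes) had a mean of 8.97, against 8.49 and 8.23 in pigs 1 and 2, and the macrophage and leukocyte list (10 genes) 6.64, against 6.31 and 6.04. The skeletal fibre list had its lowest value of the 12 arrays, 13.92, in the same array. The part of these lists in the SMTN change was not tested.

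SMTN sets 2 and 3 were dimmer, with levels below or near the array medians, and the table used gives no detection call for them. Set 3 had 5.02, 4.93 and 4.85 in pigs 1, 2 and 3 at 20 min and 5.08, 5.20 and 5.08 at 24 h, so the groups did not overlap. Its change was 0.18 ± 0.11 at 24 h (interval 0.0161 to 0.35, limma adjusted p = 0.350), 0.18 ± 0.0923 at 2 h and 0.0893 ± 0.0942 at 6 h, higher in 3 of 3 pigs each time. Set 2 had 5.49, 5.34 and 5.44 at 20 min and 5.70, 5.96 and 5.54 at 24 h, again without overlap, with a change of 0.31 ± 0.28 (interval -0.0501 to 0.67, adjusted p = 0.438). At 2 h and 6 h set 2 was higher in 1 of 3 pigs and lower in 2 of 3. The 3 probe sets of SMTN thus shared the direction at 24 h, and sets 1 and 3 shared it at every time. They report on 1 gene and are not replicates of each other.

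RGS5, the pericyte marker, had log2 levels of 10.18, 9.71 and 9.86 in pigs 1, 2 and 3 at 20 min, 10.24, 10.04 and 10.08 at 2 h, 10.43, 10.18 and 10.10 at 6 h, and 10.31, 10.25 and 10.13 at 24 h. Each pig was lowest at 20 min, but pig 1 at 20 min lay above pig 3 at 24 h, so the groups overlapped. The mean was 9.92 ± 0.24 (SD, n = 3) at 20 min and 10.23 ± 0.0882 at 24 h. The change at 24 h was 0.31 ± 0.21, with 0.12, 0.54 and 0.27 in pigs 1, 2 and 3 (interval 0.12 to 0.51, SE 0.0892, limma adjusted p = 0.238, unadjusted p = 0.00462). It was 0.20 ± 0.14 at 2 h (adjusted p = 0.625) and 0.32 ± 0.13 at 6 h (adjusted p = 0.488). Pig 2 had the largest change. The mean of the other pigs was 0.20 (adjusted p = 0.525), and the fit that left out only the 20 min array of pig 2 gave 0.23 (adjusted p = 0.440).

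KCNMB1 gave mean changes of opposite sign in its 2 probe sets at 2 h and 24 h, and lower means in both at 6 h. The brighter one, set 1, had 7.10, 7.07 and 6.85 in pigs 1, 2 and 3 at 20 min, 7.04, 7.14 and 7.14 at 2 h, 6.89, 7.05 and 6.89 at 6 h, and 7.29, 7.36 and 7.27 at 24 h. The 24 h arrays were the 3 highest of the 12, with no overlap with any earlier time. The change from 20 min was 0.30 ± 0.12 (interval 0.11 to 0.48, SE 0.0842, limma adjusted p = 0.235, unadjusted p = 0.00423). Against 6 h it was 0.36 ± 0.0438, with 0.40, 0.31 and 0.38 in the 3 pigs (interval 0.18 to 0.55, adjusted p = 0.533, unadjusted p = 0.00105). At 6 h itself the change from 20 min was -0.0662 ± 0.13, so the higher level of this probe set lay between 6 h and 24 h, whereas that of SMTN set 1 and RGS5 was in place by 6 h. Whether the genes differ in timing was not tested. Without the 20 min array of pig 3 the change at 24 h was 0.23 (adjusted p = 0.582).

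KCNMB1 set 2 had 6.41, 6.31 and 6.33 at 20 min and 6.04, 6.47 and 6.09 at 24 h in pigs 1, 2 and 3. It was lower in pigs 1 and 3 and higher in pig 2, with a mean change of -0.15 ± 0.28 (interval -0.37 to 0.0783, limma adjusted p = 0.556). At 6 h it was lower in 3 of 3 pigs without overlap (-0.21 ± 0.19, adjusted p = 0.585). Its values over the 12 arrays, between 5.99 and 6.49, lay only a little above the array medians. Over the 12 arrays the 2 KCNMB1 probe sets had a correlation of 0.0145 after each pig's mean was subtracted. The sequences of the probes were not used here, so which of them follows the KCNMB1 transcript cannot be told from these values, and the direction of KCNMB1 as a gene is uncertain.

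**Figure D1:**
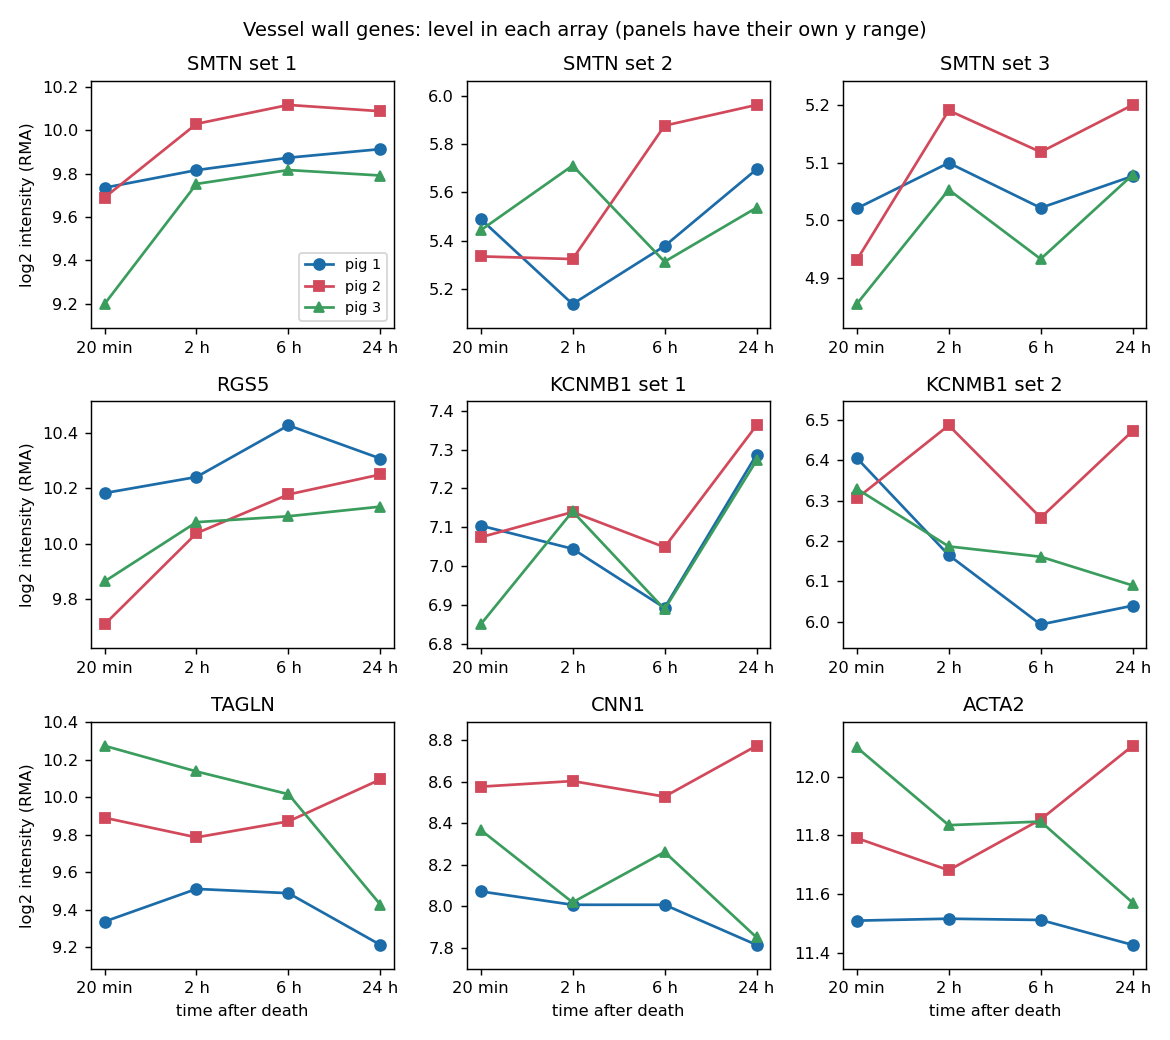
Log2 intensity after RMA (y axis, own range in each panel) of the 9 probe sets against time after death (x axis), with 1 line and symbol per pig and no averaging. SMTN set 1 and RGS5 lie lowest at 20 min in every pig, KCNMB1 set 1 lies highest at 24 h, and TAGLN, CNN1 and ACTA2 are higher at 24 h than at 20 min in pig 2 and lower in pigs 1 and 3.

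TAGLN, the actin-binding protein transgelin, had log2 levels of 9.34, 9.89 and 10.28 in pigs 1, 2 and 3 at 20 min, 9.51, 9.79 and 10.14 at 2 h, 9.49, 9.87 and 10.02 at 6 h, and 9.21, 10.10 and 9.43 at 24 h. The range over the pigs at 20 min was wider than the change of the mean over the whole day. The change at 24 h was -0.12, 0.20 and -0.85 in the 3 pigs, with a mean of -0.26 ± 0.54 (interval -0.62 to 0.11, limma adjusted p = 0.524). Without pig 3 the mean change was 0.0402 (adjusted p = 0.965). The changes at 2 h and 6 h were -0.0225 ± 0.17 and -0.0421 ± 0.21.

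CNN1, which encodes calponin, an inhibitor of the actin-activated myosin ATPase, had 8.07, 8.58 and 8.37 in pigs 1, 2 and 3 at 20 min, 8.01, 8.60 and 8.02 at 2 h, 8.01, 8.53 and 8.26 at 6 h, and 7.81, 8.77 and 7.85 at 24 h. Pig 2 was the highest at every time. The change at 24 h was -0.26, 0.20 and -0.52 in the 3 pigs, with a mean of -0.19 ± 0.36 (interval -0.46 to 0.0744, limma adjusted p = 0.512). Without pig 3 it was -0.0303 (adjusted p = 0.973).

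ACTA2 had 11.51, 11.79 and 12.10 in pigs 1, 2 and 3 at 20 min, 11.52, 11.68 and 11.84 at 2 h, 11.51, 11.85 and 11.85 at 6 h, and 11.43, 12.11 and 11.57 at 24 h. Pig 1 was nearly level, pig 2 was highest at 24 h, and pig 3 was highest at 20 min. The change at 24 h was -0.0827, 0.31 and -0.53, with a mean of -0.0992 ± 0.42 (interval -0.39 to 0.19, limma adjusted p = 0.771), and 0.12 without pig 3 (adjusted p = 0.869). Leaving out pig 2 instead gave -0.49 for TAGLN, -0.39 for CNN1 and -0.31 for ACTA2 at 24 h (limma adjusted p = 0.359, 0.336 and 0.424), so that the sign of TAGLN and ACTA2 turned on which pigs were included. Leaving out only the 20 min array of pig 3 gave -0.10, -0.0962 and 0.0280 (adjusted p = 0.904, 0.875 and 0.973). The actin genes are close copies of each other, and skeletal muscle is rich in the skeletal form, so the share of ACTA2 transcript in this signal is uncertain.

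**Figure D2:**
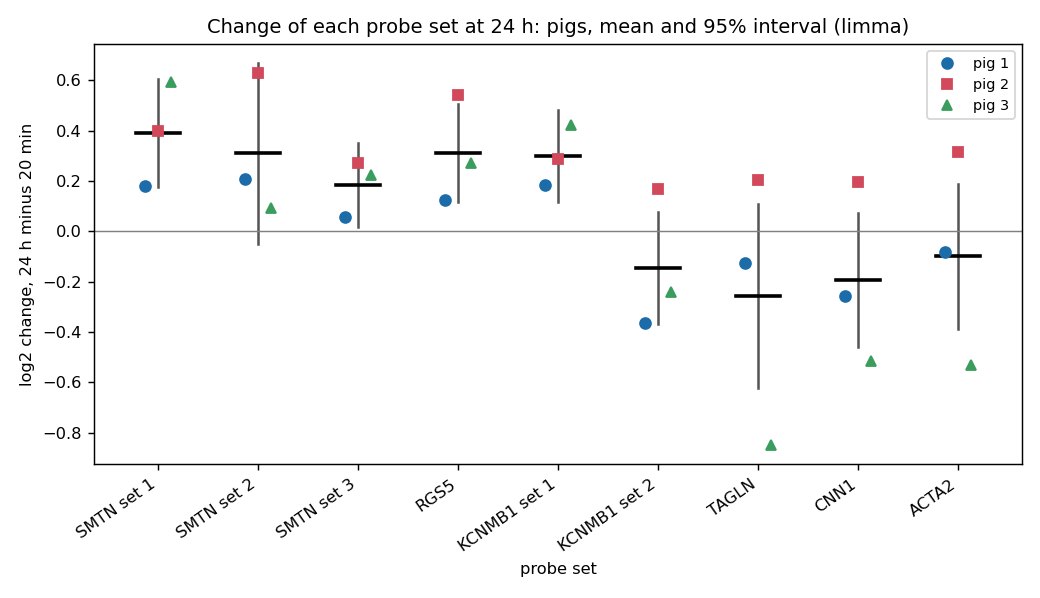
Log2 change from 20 min to 24 h (y axis) of the 9 probe sets (x axis). Symbols are the 3 pigs, the short bar is the mean and the vertical line the 95% interval of limma's model. The 5 probe sets of SMTN, RGS5 and KCNMB1 set 1 have all pigs above 0, and the other 4 have pig 2 above 0 and pigs 1 and 3 below.

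Counted over the 9 probe sets, the comparison of 24 h with 20 min had 0 past the adjusted threshold of 0.05, where limma called 0.00417% of all probe sets. At unadjusted p under 0.05 there were 4 of 9, all higher, against 6.41% of all probe sets. The groups at 24 h and 20 min did not overlap for 4 of 9, all above, against 6.99% of all probe sets. All 3 pigs were higher for 5 of 9, against 17.8%, and all 3 lower for 0 of 9, against 16.7%. SMTN alone gives 3 of these 5, and the genes were picked with results of these data known, so the counts are a description and carry no test. The median change of the 9 was 0.18, against 0.0082 over all probe sets.

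The earlier comparisons gave fewer such probe sets. At 2 h, 0 of 9 passed the adjusted threshold, where 0% of all probe sets did. An unadjusted p under 0.05 was seen at 2 h for SMTN set 1, SMTN set 3 and RGS5, all higher (3 of 9, against 4.01% of all probe sets). The same 3 were higher in every pig, against 13.8%, both SMTN sets without overlap (2 of 9, against 4.2%), and the median change of the 9 was -0.0225. That count depended on single arrays and on the fit. It was 0 without pig 3 and without the replicate block, and 1 when any 1 of 8 fits was used instead: without pig 2, without the 20 min array of pig 2 or of pig 3, without any 1 of the 2 h arrays, without the 6 h array of pig 1, and with the arrays of the 2 times alone. Of all 23999 probe sets, 1167 had such a p in either direction without pig 3 and 727 without the block. In the 8 fits that number was between 1224 and 2276. At 6 h SMTN set 1 and RGS5 were at unadjusted p under 0.05 (2 of 9, against 4.29% higher), and 0 of 9 passed, as did 0% of all. At 6 h, 3 of 9 were higher in every pig, against 15.4%, and KCNMB1 set 2 and CNN1 were lower in every pig (2 of 9, against 16.6%). SMTN set 1 lay above its 20 min values without overlap (1 of 9, against 4.24%) and KCNMB1 set 2 below (1 of 9, against 3.81%). SMTN sets 1 and 3 and RGS5 were higher than at 20 min in 3 of 3 pigs at all 3 later times (3 of 9, against 3.42% of all probe sets), and 0 of 9 were lower in this way, against 4.39%. Between 2 h and 6 h, 0 of 9 had an unadjusted p under 0.05, against 2.26% of all probe sets. KCNMB1 set 1 was the 1 of 9 with an unadjusted p under 0.05 for 24 h against 6 h (4.28% of all probe sets, higher) and against 2 h (2.38%, higher). It was also the 1 of 9 without overlap in these comparisons, above in both (6.15% and 4.5%), and 0 of 9 passed in either, as did 0% of all.

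In limma's F test for any difference among the 4 times, the smallest adjusted p of the 9 was 0.535, for SMTN set 1 (unadjusted p = 0.00483). KCNMB1 set 1 and RGS5 had unadjusted p of 0.00559 and 0.0136, which made 3 of 9 under 0.05, against 8.22% of all probe sets. Past the adjusted threshold were 0 of 9, against 0.00417%. For TAGLN, CNN1 and ACTA2 the unadjusted p of this F test was 0.425, 0.471 and 0.804.

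For the smooth muscle markers, pig took a larger share of the variation than time did. Of the sum of squares over the 12 arrays, pig took 79.4% for CNN1, 60.6% for TAGLN and 58.4% for ACTA2, and time took 5.28%, 9.40% and 4.41%. For SMTN set 1 pig took 37.1% and time 50.2%, for RGS5 39.1% and 48.0%, and for KCNMB1 set 1 9.76% and 77.4%. The medians over all probe sets were 31.8% for pig and 21.0% for time. Since 3 pigs and 4 times have different numbers of levels, these shares are a description only.

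The test of level between pigs was passed by 3 of the 9 probe sets, where limma's F test called 19.9% of all probe sets. CNN1 averaged 7.98 ± 0.11 in pig 1, 8.62 ± 0.11 in pig 2 and 8.12 ± 0.23 in pig 3 (SD over the 4 times, limma adjusted p = 0.00309), and all 4 arrays of pig 2 lay above all those of pigs 1 and 3. TAGLN averaged 9.39 ± 0.14, 9.91 ± 0.13 and 9.96 ± 0.37 (adjusted p = 0.0234), with pig 2 above pig 1 at all 4 times and without overlap. SMTN set 1 averaged 9.84 ± 0.0774, 9.98 ± 0.20 and 9.64 ± 0.30 (adjusted p = 0.0348), so that pig 3 was lowest for SMTN and highest for TAGLN. The arrays of 2 given pigs lay fully apart for between 14.3% and 18.7% of all probe sets.

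RGS5 (adjusted p = 0.0547) and ACTA2 (adjusted p = 0.0573) did not pass the same test, but RGS5 passed under 5 of 6 other ways of processing or fitting the 12 arrays and ACTA2 under 3 of 6. In the test as first fitted, 5 of 9 had an unadjusted p under 0.05, against 34% of all probe sets. RGS5 averaged 10.29 ± 0.10 in pig 1 and 10.04 in both other pigs, and ACTA2 averaged 11.49 ± 0.0429 in pig 1, 11.86 ± 0.18 in pig 2 and 11.84 ± 0.22 in pig 3. Pig 1, which was lowest for TAGLN, CNN1 and ACTA2, was thus highest for RGS5. The calls for single genes moved with the arrays used. Of 15 fits that left out 1 array or 1 pig, CNN1 passed in 14 (not without pig 2), TAGLN in 10, ACTA2 in 4, SMTN set 1 in 3 and RGS5 in 1. Without pig 1 the limma adjusted p was 0.999 for RGS5 and 0.947 for ACTA2. Without the 2 h, the 6 h or the 24 h array of pig 1, CNN1 was the 1 of 9 that passed. SMTN set 1 passed only without pig 1, without its 20 min array or without the 2 h array of pig 3. The 4 arrays of a pig share the animal and whatever handling it had, which cannot be told apart.

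Once each pig's own mean was subtracted, 6 of the 9 probe sets formed 2 groups of like pattern. Over the 12 arrays TAGLN correlated with ACTA2 at r = 0.86 and with CNN1 at 0.79, and CNN1 with ACTA2 at 0.82. SMTN set 1 correlated with RGS5 at 0.83 and with SMTN set 3 at 0.76. The other 3 probe sets crossed or joined these groups: KCNMB1 set 2 had r = 0.61 with CNN1, KCNMB1 set 1 had 0.67 with SMTN set 3, and SMTN set 2 had 0.56 with RGS5. Between the groups, over all 12 arrays, SMTN set 1 had -0.40 with TAGLN, -0.47 with CNN1 and -0.40 with ACTA2, and RGS5 had -0.12, -0.17 and 0.0069. The negative values of SMTN set 1 rested on the 20 min array of pig 3, the lowest of the 12 for SMTN set 1 and the highest for TAGLN: over the other 11 arrays they were 0.0013, 0.0046 and 0.20. Those of RGS5 were then 0.10, 0.0970 and 0.36. Within the groups r stayed at 0.82 for TAGLN with ACTA2, 0.70 for TAGLN with CNN1, 0.72 for CNN1 with ACTA2, 0.93 for SMTN set 1 with RGS5 and 0.71 for SMTN set 1 with SMTN set 3. The pigs gave unequal parts of the summed products behind r over the 12 arrays. For the first 3 pairs pig 3 gave 0.23, 0.21 and 0.14, and pigs 1 and 2 at most 0.0693. For SMTN set 1 with RGS5 pigs 1, 2 and 3 gave 0.0183, 0.14 and 0.11, and for SMTN set 3 with RGS5 -0.0027, 0.0795 and 0.0314. Arrays of 1 pig are not independent, and SMTN, RGS5 and the others were measured on the same arrays, so these values are descriptions with no p.

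**Figure D3:**
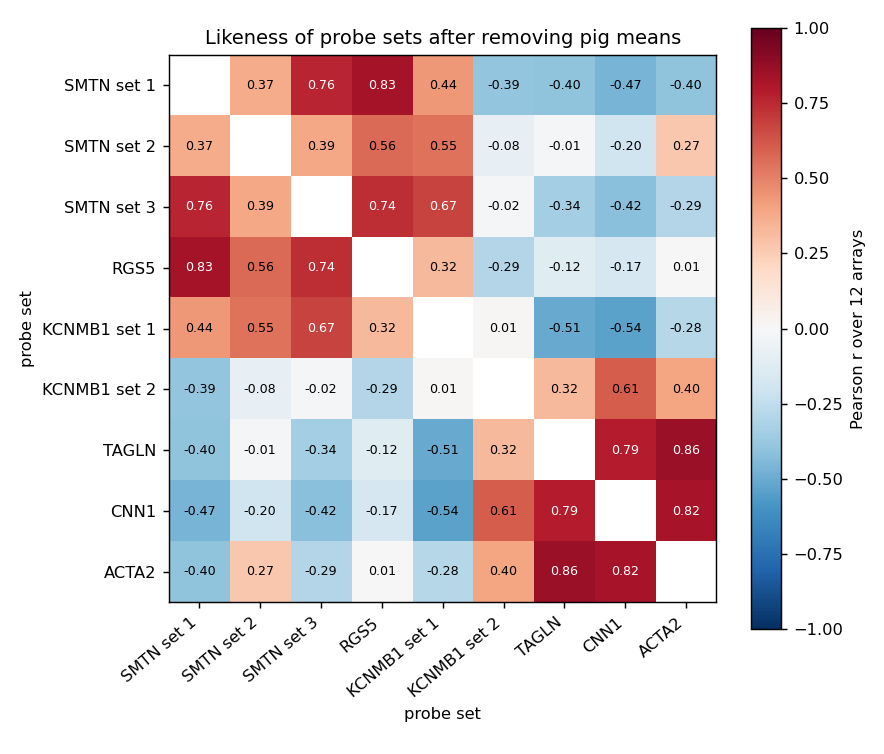
Pearson r between each pair of the 9 probe sets (both axes) over the 12 arrays after the mean of each pig was subtracted; red is positive and blue negative. TAGLN, CNN1 and ACTA2 form 1 block with r of 0.79 to 0.86, and SMTN sets 1 and 3 with RGS5 form another with r of 0.74 to 0.83.

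Among 6421 probe sets of other named genes with a mean above the overall median, those most like SMTN set 1 within pigs were HSD17B10 (r = 0.99), GOT2 (0.97) and HADHA (0.97), which encode mitochondrial enzymes. Without subtracting pig means they were HSD17B10 (0.99), the respiratory chain subunit gene NDUFS7 (0.96) and the water channel gene AQP1 (0.96). Within pigs, as for all the probe sets that follow, those most like RGS5 were WBP1 (0.95), LOC100621559 (0.92) and DES (0.92). DES encodes the intermediate filament protein desmin of all muscle types. Those most like TAGLN were UFC1 (0.96), CALD1 (0.93), which encodes the smooth muscle actin-binding protein caldesmon, and ID3 (0.93). ACTA2 was most like DSTN (0.95), ACTG2 (0.94), the enteric smooth muscle actin gene, and B2M (0.91), and CNN1 most like N4BP2L2 (0.93), ACTG2 (0.92) and B4GALT5 (0.92). KCNMB1 set 1 was most like LPCAT4 (0.91), GMIP (0.90) and HCRTR2 (0.90), and set 2 most like PPP2R1B (0.87), LOC102162486 (0.83) and MRAS (0.81). SMTN set 2 was most like C4H1orf226 (0.89), DHX30 (0.89) and PRKAG3 (0.88), and SMTN set 3 most like WAS (0.93), FHL1 (0.92) and CD34 (0.91). These are the best of many candidates over 12 values, and the best r within pigs was 0.87 or more for each of the 9 probe sets. Without the 20 min array of pig 3, r for the genes named here was 0.79 or more; whether other genes would then rank higher was not tested.

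The other genes of the contractile apparatus, from a list of 24 of which 19 were on the array, had 0 called at 24 h in either direction. Of these 19, 8 were higher and 11 lower at 24 h, with a median change of -0.0082, against -0.0109 over 6765 genes with 1 probe set each. At unadjusted p under 0.05 there were 1 higher and 1 lower, where 6.28% and 8.71% of all genes were. The brightest members are also made by skeletal fibres: the tropomyosin genes TPM1 and TPM2 had changes of -0.0988 ± 0.0419 and 0.10 ± 0.0874, desmin (DES) of 0.19 ± 0.17 and synemin (SYNM) of -0.0082 ± 0.05, none past the threshold. CALD1, which resembled TAGLN in pattern, had a change of -0.0756 ± 0.24. ACTG2 had a change of -0.0456 ± 0.58 in its brightest probe set and of -0.47 in the other one, which resembled ACTA2 and CNN1. The list mean had changes of 0.0620, 0.18 and -0.23 in pigs 1, 2 and 3.

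Of 16 other pericyte genes listed, 7 were on the array, 4 higher and 3 lower at 24 h, with 0 called and a median change of 0.0065. PDGFRB, the receptor through which pericytes are recruited to vessels, had a change of 0.0128 ± 0.29 (interval -0.21 to 0.24), the gap junction gene GJA4 of 0.0065 ± 0.0662, HIGD1B of 0.0126 ± 0.0759 (interval -0.20 to 0.22) and the adhesion molecule gene MCAM of -0.11 ± 0.52. ANPEP, which encodes the surface peptidase CD13 and is named because it was the 1 gene of the list at unadjusted p under 0.05, had a change of -0.33 ± 0.38, lower in 3 of 3 pigs (interval -0.65 to -0.0186, limma adjusted p = 0.364). Its mean over the arrays, 5.47, lay below the array medians. A difference between RGS5 and these genes was not tested.

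Other members of the RGS family, which act on the same receptors' signals, were represented by 7 of 18 genes, 3 higher and 4 lower at 24 h with 0 called and a median of -0.0627. RGS2 had a change of -0.40 ± 0.85, RGS14 of 0.0233 ± 0.0997, RGS16 of 0.19 ± 0.30 and RGS4 of 0.14 ± 0.43. KCNMA1, the pore-forming subunit with which the KCNMB1 product assembles, had a change of -0.0035 ± 0.0624 (interval -0.18 to 0.17) and was the 1 gene of 5 on the array in the list of channel subunits. Its level, between 5.67 and 5.87 over the arrays, lay near or below the array medians.

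Genes of vascular tone signalling, 19 of 34 on the array, were higher in 12 and lower in 7 cases at 24 h (median 0.0634), with 0 called and 3 higher and 1 lower at unadjusted p under 0.05, where 6.28% and 8.71% of all genes were. The calcium pump gene ATP2A2 had a change of 0.22 ± 0.20, its inhibitor PLN of 0.30 ± 0.49, the myosin phosphatase subunit gene PPP1CB of 0.23 ± 0.26 and the small GTPase gene RHOA of -0.0840 ± 0.0640. ATP2A2 and PLN were very bright, with means of 13.5 and 12.1 over the arrays. The shares of vessel wall cells and of muscle fibres in their signal were not tested. EDNRA, the endothelin receptor of smooth muscle, had a change of 0.29 ± 0.11 (interval 0.12 to 0.47, limma adjusted p = 0.220), and EDN1, its ligand, of -0.41 ± 0.43. Both were chosen after their values were seen, and the other 2 of the 4 were ATP2A2 and ITPR1 (0.31 ± 0.21). EDNRA and EDN1 had means of 5.82 and 4.45 over the arrays, below the array medians. How far they lie above background is unknown. Of the smooth muscle transcription regulators, 11 of 22 were on the array, with 6 higher, 5 lower and 0 called, and 1 higher and 2 lower at unadjusted p under 0.05. FHL1, TEAD4, TEAD1 and PRRX1 had changes of 0.0850 ± 0.0552, 0.17 ± 0.25, -0.0975 ± 0.22 and 0.57 ± 0.95. FHL1, with a mean of 14.2, was as bright as the skeletal fibre genes, and the cells behind its signal were not tested. The 3 at unadjusted p under 0.05, chosen after their values were seen, were MYOCD, the master coactivator of smooth muscle genes, at 0.26 ± 0.15 (adjusted p = 0.280), FHL2 at -0.45 ± 0.45, lower in 3 of 3 pigs (adjusted p = 0.257), and KLF4 at -0.40 ± 0.54 (adjusted p = 0.329). MYOCD also had a mean below the array medians, 5.18. Of the paralogs of the members, 5 of 8 were on the array and 0 were called. SMTNL2 had a change of 0.0739 ± 0.17, CNN3 of -0.12 ± 0.41, TAGLN2 of -0.0643 ± 0.44 and TAGLN3 of 0.13 ± 0.19.

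Markers of the neighbouring cell types varied by pig over the same day. The macrophage and leukocyte list and the adipocyte list had lower means at 24 h than at 20 min in every pig. Endothelial markers (15 of 18 on the array, 0 called, 9 higher and 6 lower at 24 h) had list means between 7.03 and 7.11 at 20 min, 7.07 and 7.25 at 2 h, 7.01 and 7.37 at 6 h, and 6.99 and 7.35 at 24 h. Their change at 24 h was 0.0164, 0.30 and -0.12 in pigs 1, 2 and 3, while TAGLN had changes of -0.12, 0.20 and -0.85. PECAM1, CDH5, VWF and EGFL7 had changes of -0.23 ± 0.34, 0.16 ± 0.34, 0.0647 ± 0.47 and 0.16 ± 0.16. At unadjusted p under 0.05 the endothelial list had 2 higher and 0 lower at 24 h, where 6.28% and 8.71% of all genes were. Fibroblast and matrix markers (17 of 20, 0 called, 4 higher and 13 lower) ranged from 8.23 to 8.97 at 20 min and from 8.27 to 8.56 at 24 h, with changes of 0.0733, 0.0441 and -0.48. SPARC, DCN, COL6A3 and FBN1 had changes of 0.0312 ± 0.12, 0.0385 ± 0.30, -0.0890 ± 0.26 and -0.20 ± 0.61. This list had 0 higher and 1 lower at unadjusted p under 0.05.

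Macrophage and leukocyte markers (10 of 15, 0 called, 3 higher and 7 lower) ranged from 6.04 to 6.64 at 20 min and from 5.36 to 6.01 at 24 h, with changes of -0.31, -0.26 and -1.28 in the 3 pigs. At unadjusted p under 0.05, 1 of the 10 was higher and 6 were lower, where 6.28% and 8.71% of all genes were. C1QC, CD163, VSIG4 and TYROBP had changes of -1.63 ± 1.15, -1.29 ± 0.98, -1.19 ± 0.97 and -0.32 ± 0.56. Skeletal fibre markers (15 of 20, 0 called, 9 higher and 6 lower) had list changes of -0.0234, 0.11 and 0.16, in the same order of pigs as SMTN set 1 (0.18, 0.40 and 0.59); the bright fibre genes TNNC2, MYL2, CKM and MYL1 had changes of -0.0359 ± 0.0284, 0.0613 ± 0.0965, -0.0060 ± 0.0181 and 0.0099 ± 0.0428. These are among the brightest probe sets of the list, and 3 others were at unadjusted p under 0.05 and are named for that reason, the slow fibre genes MYL3 (0.39 ± 0.47), TNNI1 (0.29 ± 0.30) and TNNC1 (0.27 ± 0.28), each higher in 2 of 3 pigs. Adipocyte markers (6 of 10), nerve markers (5 of 10) and erythroid markers (3 of 8) also had 0 called, with list changes of -0.0765, -0.12 and -0.24, of 0.0131, -0.0950 and 0.0643, and of -0.0159, 0.15 and 0.0019. At unadjusted p under 0.05 the adipocyte list had 1 higher and 2 lower, the nerve list 0 and the erythroid list 0. The part of any of these cell types in the vessel wall values was not tested.

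**Figure D4:**
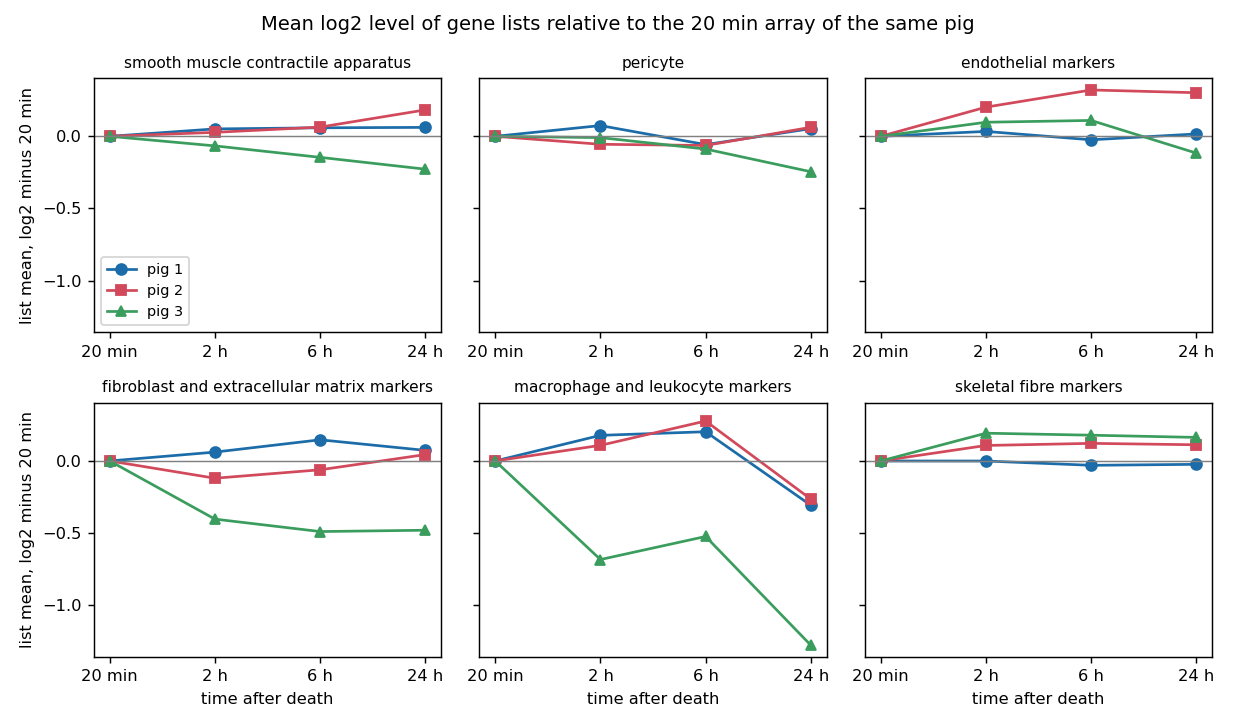
Mean log2 level of 6 gene lists minus that of the 20 min array of the same pig (y axis) against time after death (x axis), 1 line per pig, all panels on 1 scale. Pig 3 lies lowest at 24 h in the contractile, pericyte, endothelial, fibroblast and macrophage lists (-0.23, -0.25, -0.12, -0.48 and -1.28) and highest in the skeletal fibre list (0.16).

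RNA quality was read from control probe sets at both ends of a transcript. For EF1A, the signal at the 3′ end minus that at the 5′ end was higher at 24 h than at 20 min by 0.38 in pig 1 and 0.47 in pig 3, and differed by -0.0102 in pig 2. The 20 min array of pig 3 had the lowest value of the 12 arrays, 0.23. At 24 h the values themselves were 0.86, 0.615 and 0.70 in pigs 1, 2 and 3. At 2 h the differences from 20 min were 0.0773, 0.49 and 0.26 in pigs 1, 2 and 3, and pig 2 at 2 h had the highest value of the 12 arrays, 1.11. At 6 h they were 0.0617, -0.0378 and 0.21. Pig 2 had the highest 24 h change of the 3 pigs in 7 of the 9 vessel wall probe sets, against 32.9% of all probe sets, the exceptions being SMTN set 1 and KCNMB1 set 1, where pig 3 was highest. The GAPDH control differences had changes of 0.0611, 0.0098 and 0.0391 and those of the actin control of 0.0935, -0.23 and -0.0437. The part of RNA quality in these values was not tested.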

How the data were processed

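Log2 intensities per probe set from 12 one-colour Affymetrix porcine arrays were used as deposited. Per the submitters' processing notes, the authors used affy and RMA; for versions, parameters and genome build nothing is stated there. RMA removes any shift common to all transcripts. Sorted values of the arrays lay within 0.126 of their mean. How far a probe set lies above background cannot be read from these values, and precision rests on 3 pigs.

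All 23999 probe sets that are not controls (24123 less 124) were tested, with no filter on level. GEO's platform annotation, possibly outdated, gave the symbols; all 6 member genes matched the Sscrofa11.1 RefSeq gene table by gene ID. Probe and promoter sequences were not used here.

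Groups and pig numbers came from the titles. R 4.3.3 and limma 3.58.1 (with statmod 1.5.0) fitted 1 model with a term for time and a fixed block for pig (6 residual and 5.67 prior degrees of freedom). Tests were two-sided and Benjamini-Hochberg adjusted over all 23999 probe sets, at 0.05. Pigs pair the arrays by design, and over the 18 same-pig pairs the deviations from the time means had r of 0.409 to 0.656. Portions of 1 pig are repeated samples of that animal. SDs of changes are over the 3 pigs.

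Lists used the brightest probe set of each gene, and up to 4 members were named: those past the threshold, then the brightest. Members and lists were chosen with earlier results of these data known.

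Alternatives were no block or a random block, leaving out the dimmest 40%, cyclic loess, centring on the brightest 10%, repeated quantile normalisation, array weights, a prior that is trended and robust, the 2 times compared alone, other thresholds, and each pig or array left out. Correlations without the 20 min array of pig 3 were added after seeing the data.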

Additional observations from a re-analysis of the deposited data

How the results depend on the processing

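None of the 9 probe sets passed over all probe sets in any comparison of times under any of 24 alternative fits or at a threshold of 0.10 or 0.01. Few of all probe sets passed in these fits. The most was 46 of 23999, at 6 h against 20 min without the 20 min array of pig 1. Of 645 recomputed changes from 20 min, 30 had another sign, in 11 results. With array weights these were SMTN set 2 (0.0098), KCNMB1 set 2 (4e-04) and TAGLN (0.0205), all at 2 h. The rest came from leaving out a pig or an array, where the ranges were -0.26 to 0.13 (SMTN set 2, 2 h), -0.19 to 0.0318 (KCNMB1 set 2, 2 h), -0.12 to 0.13 (TAGLN, 2 h), -0.21 to 0.0045 (ACTA2, 2 h), -0.12 to 0.23 (SMTN set 2, 6 h), -0.14 to 0.0068 (KCNMB1 set 1, 6 h), -0.14 to 0.11 (TAGLN, 6 h), -0.17 to 0.0234 (CNN1, 6 h), -0.15 to 0.0648 (ACTA2, 6 h), -0.50 to 0.0402 (TAGLN, 24 h) and -0.31 to 0.12 (ACTA2, 24 h). SMTN set 1, SMTN set 3 and RGS5 kept their sign at every time, as did KCNMB1 set 1 at 24 h.

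The 3 probe sets at unadjusted p under 0.05 at 2 h were 0 without the replicate block, 1 with only the 2 times compared, and 0 to 3 with a pig or array left out. Of all 23999 probe sets, 727, 1294 and 1167 to 3169 were at such a p in these fits. With fewer samples the test has less power. The count passing between pigs, 3, was 5 without the dimmest 40% and 5 with the trended and robust prior. It was 5 at a threshold of 0.10, 1 at 0.01, and 1 to 4 with a pig or array left out. All 6 other ways of processing or fitting the 12 arrays gave a count above 3. Of all probe sets, 4770 of 23999 passed in the main fit, and 4784 of 14399 without the dimmest 40%. With the trended and robust prior 5209 of 23999 passed, and with a pig or array left out 1872 to 4707. At unadjusted p under 0.05 the count of the 9 was 5, and 2 to 6 with these left out. Of all probe sets, 3138 had an unadjusted p under 0.05 at 24 h, and 1394 without the replicate block; the block turned no adjusted call of the 9. The median change of all probe sets moved by at most 0.0405 under the other scalings. SMTN set 3 was not among the probe sets left without the dimmest 40%, and the test between pigs was not run without the block or with a random block, which have no fixed pig term, nor for 2 times alone. How far the dim SMTN sets lie above background is unknown.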
